A study of Mus musculus with 32 samples.

Results

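Myd88 and its neighbours in Toll/IL-1 receptor signalling were followed through the distal colon of Myd88 knockout and wild type mice. The set comprised 10 genes, namely the adaptors Myd88, Tirap and Ticam1, the kinases Irak1, Irak2 and Irak4, the ubiquitin ligase Traf6, and the inhibitors Irak3, Tollip and Sigirr. They were chosen by name for their place in the pathway, with earlier results of these data known. Of the 10 members, 9 had at least 1 probe set that carried their symbol alone in the platform annotation, with 19 such probe sets in all, among 18193 genes measured. Irak4 was not analysed here. Each gene was represented by the probe set with the highest mean over the 32 arrays.

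RNA of the distal colon was hybridised to Affymetrix expression arrays, 1 array for each of 32 mice. The groups were 10 treated Myd88-/- mice (treated KO), 10 treated wild type mice (treated WT), 6 untreated Myd88-/- mice (untreated KO) and 6 untreated wild type mice (untreated WT). The knockout had been backcrossed until the mice were at least 98% congenic with the C57 BL6NCr background of the wild types. Treated mice, aged 6 to 8 weeks, received azoxymethane (AOM), a colon carcinogen, at 10 mg/kg into the peritoneum. After 1 week they drank 2% dextran sodium sulfate (DSS, a chemical that wounds the gut epithelium) for 3 days and were then killed. The labels give no age, housing or handling for the untreated mice, so treatment cannot be told apart from other differences between treated and untreated animals. They also do not say which part of Myd88 was removed. Levels below are quantile-normalised log2 signals, on which the lowest deposited value was 3.322, and they are compared between groups for 1 probe set at a time, never between genes.

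Toll-like receptors sense microbial molecules, and the receptors for IL-1, IL-18 and IL-33 share with them an intracellular TIR domain. Most of these receptors recruit Myd88, which gathers Irak4, Irak1 and Irak2 into a complex. That complex activates Traf6 and, through the kinase Tak1 (Map3k7), NF-kappaB and MAP kinases. Tirap bridges Myd88 to Tlr2 and Tlr4, while Ticam1, also called TRIF, serves Tlr3 and Tlr4 by a route that does not need Myd88 and leads to interferon genes. Irak3, Tollip and Sigirr dampen the pathway at the receptor or at the Irak complex. In the colon, Myd88 signalling is known for its part in epithelial repair and in inflammation after injury by DSS.

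The promoters of Myd88, Ticam1 and Irak2 are shown, Myd88 as the targeted gene and Ticam1 and Irak2 as the adaptor and the kinase that were called higher in treated KO than in treated WT mice in every setting tried at an adjusted p under 0.05, as was the inhibitor Tollip. Each sequence holds the 250 bases before the start site, 5′ to 3′ on the strand of the gene, from RefSeq on build GRCm38.p6. Capitals mark matches to the motifs searched. Myd88 lies on the minus strand, with this window at chr9:119340019-119340268. Ticam1 lies on the minus strand, at chr17:56276768-56277017, and Irak2 on the plus strand, at chr6:113638217-113638466.
Myd88 promoter: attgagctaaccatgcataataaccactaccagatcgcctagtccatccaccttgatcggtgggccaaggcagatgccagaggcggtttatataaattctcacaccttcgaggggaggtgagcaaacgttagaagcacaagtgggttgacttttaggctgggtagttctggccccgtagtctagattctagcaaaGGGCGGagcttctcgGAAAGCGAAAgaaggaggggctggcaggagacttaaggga
Ticam1 promoter: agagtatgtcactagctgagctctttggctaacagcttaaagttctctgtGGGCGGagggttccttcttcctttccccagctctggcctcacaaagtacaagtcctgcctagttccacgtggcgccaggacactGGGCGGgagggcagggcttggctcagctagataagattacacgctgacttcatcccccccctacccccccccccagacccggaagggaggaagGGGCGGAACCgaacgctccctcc
Irak2 promoter: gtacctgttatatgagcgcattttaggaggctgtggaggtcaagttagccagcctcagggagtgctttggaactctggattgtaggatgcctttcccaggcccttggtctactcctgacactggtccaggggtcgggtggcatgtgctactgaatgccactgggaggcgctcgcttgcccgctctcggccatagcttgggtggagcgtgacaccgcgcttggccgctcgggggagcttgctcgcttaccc

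RefSeq promoters were matched for 9 of the 10 members, at 12 start sites. Both strands were searched for an NF-kappaB site (GGG and CC with any 5 bases between them, held by 45.8% of 32851 promoter windows of this length), a GC box (GGGCGG, 32.7%), an AP-1 site (TGANTCA, 6.75%), a CCAAT box (CCAAT, 33.8%) and an interferon element (a pair of GAAA with any 2 bases between them, 2.98%). The Myd88 window held a GC box at bases -55 to -50 from the start site and an interferon element at bases -40 to -31. No other member's window held the interferon element, and none held the AP-1 letters. The Ticam1 window held GC boxes starting at bases -200, -116 and -23, the last of which overlapped a match to the NF-kappaB letters at bases -23 to -14. None of the motifs was in the Irak2 window. These matches describe letters and were not tested as binding sites.

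Across the series, arrays of 1 group correlated with r between 0.935 and 0.985, and the mean of 11 colon epithelium markers was between 11.38 and 12.22 on every array. KO and WT mice differed at 12.8% of all genes after treatment, counting genes with a limma adjusted p under 0.05, and at 0.115% without it. Treated and untreated mice differed at 18.8% of genes (3414) in KO and at 1.83% (333) in WT mice. The gap depended on the fit. With only the compared groups fitted, 1933 genes were called in KO and 911 in WT mice, and with array weights 3437 and 1466. Treated WT replicates 1 and 2 carried high signals of squamous epithelium genes. The mean of 13 such markers was 4.56 to 8.51 in treated KO and 4.50 to 11.9 in treated WT mice, with 0 of 13 called between them. All 13 were lower in treated KO than in treated WT mice (median -1.58), and all 13 were higher in treated than in untreated WT mice (median 2.14, 1 called). The mean of 9 skeletal muscle markers was 4.81 to 9.49 in treated KO and 4.76 to 10.2 in treated WT mice. Of the 9, 8 were lower in treated KO than in treated WT mice (median -0.56, 0 called). All 9 were higher in treated than in untreated WT mice (median 1.24, 0 called). Without treated WT replicates 1 and 2 the same 5 members were called between treated genotypes. Other arrays carried squamous signals as well, for example treated WT replicate 6 (8.82), treated KO replicate 8 (8.51) and untreated KO replicate 3 (8.79). With the squamous epithelium and skeletal muscle marker means as covariates the Irak1 call was lost (limma adjusted p = 0.0522). The calls of Myd88, Ticam1, Irak2 and Tollip held in that setting. The comparisons share groups and are therefore not independent of each other.

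Of the 9 measured members, 5 were called between treated KO and treated WT mice, against a background of 12.8% of all genes. Of these, 1 was Myd88, the targeted gene itself, and 4 were other members. Ticam1, Irak1, Irak2 and Tollip were called higher in KO mice, as were 6.24% of all genes, and Myd88 was called lower, as were 6.58% of all genes. In sign, called or not, 7 of the 9 were higher. Tirap passed only an unadjusted p under 0.05. The median log2 difference of the 9 was 0.20, against 0 over all genes. Without treatment, Myd88 alone was called.

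Myd88, the targeted gene, was read by 1 probe set (1419272_at). In treated KO mice its log2 signal was 7.64, 7.94, 8.31, 8.00, 8.28, 7.65, 8.29, 8.16, 7.50 and 8.26 in replicates 1 to 10. In treated WT mice it ranged from 8.26 to 8.61 with a median of 8.49. It ranged from 7.53 to 7.81 (median 7.69) in untreated KO and from 8.23 to 8.51 (median 8.44) in untreated WT mice. The untreated genotypes did not overlap, whereas in treated mice 7 of 10 KO arrays lay below the lowest WT array and 3 reached into the WT range.

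Group means were 8.00 ± 0.31 (SD, n = 10) in treated KO and 8.46 ± 0.12 (SD, n = 10) in treated WT mice, a difference of -0.46 ± 0.09 (SE), or 1.38-fold lower in KO (limma adjusted p = 0.00105). Without treatment the means were 7.67 ± 0.11 in KO and 8.40 ± 0.10 in WT mice (SD, n = 6 each), a difference of -0.73 ± 0.11 (adjusted p = 0.000916). Every KO array thus kept a signal far above the floor. Since the removed part of the gene and the place of the probe set in the transcript are not given in the sources used here, this remaining signal does not check the knockout.

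Within KO mice, Myd88 was higher after treatment by 0.33 ± 0.10 (adjusted p = 0.0225), the 10 treated arrays falling into 7 above the highest untreated array, 2 within its range and 1 below. This call was lost when only those groups were fitted (adjusted p = 0.121), and without untreated KO replicate 2 (adjusted p = 0.0564) or 5 (adjusted p = 0.0600). In WT mice, the same difference was 0.06 ± 0.10 (adjusted p = 0.867). The difference between the responses was 0.27 ± 0.14 and did not pass (adjusted p = 0.471).

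Markers of macrophages and monocytes moved with Myd88 among the treated KO arrays. The mean log2 signal of 13 measured markers of 14 was 7.12, 7.98, 9.04, 8.13, 8.07, 7.33, 8.18, 7.78, 7.03 and 8.75 in treated KO replicates 1 to 10. Replicates 9, 1 and 6 had both the lowest Myd88 signals and the lowest marker means, and the 4 replicates with the highest Myd88 signals, 3, 7, 5 and 10, had marker means from 8.07 to 9.04. In each other group the array with the highest Myd88 signal had a low marker mean. It was 7.70 in treated WT (replicate 9), 7.38 in untreated KO (replicate 1) and 7.29 in untreated WT mice (replicate 6). Arrays with the highest marker mean there had Myd88 at 8.55 (treated WT replicate 5), 7.69 (untreated KO replicate 3) and 8.47 (untreated WT replicate 2).

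The marker mean was 7.66 to 8.48 in treated WT, 7.28 to 7.82 in untreated KO and 7.29 to 7.91 in untreated WT mice. None of the 13 markers was called between treated genotypes, and none was at the floor on all arrays. Only Cd68 was called higher after treatment in KO mice (1.18 ± 0.30, adjusted p = 0.00578), against 8.7% of all genes. In sign, 11 of the 13 were higher after treatment in KO mice (median 0.48) and 12 of the 13 in WT mice (median 0.43). The summed linear signal of the markers ran from 3166 to 13463 in treated KO and from 5088 to 8620 in treated WT mice. The part of these cells in the Myd88 signal was not tested. In bulk tissue, fewer cells of a type and less RNA per cell cannot be told apart.

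**Figure D1:**
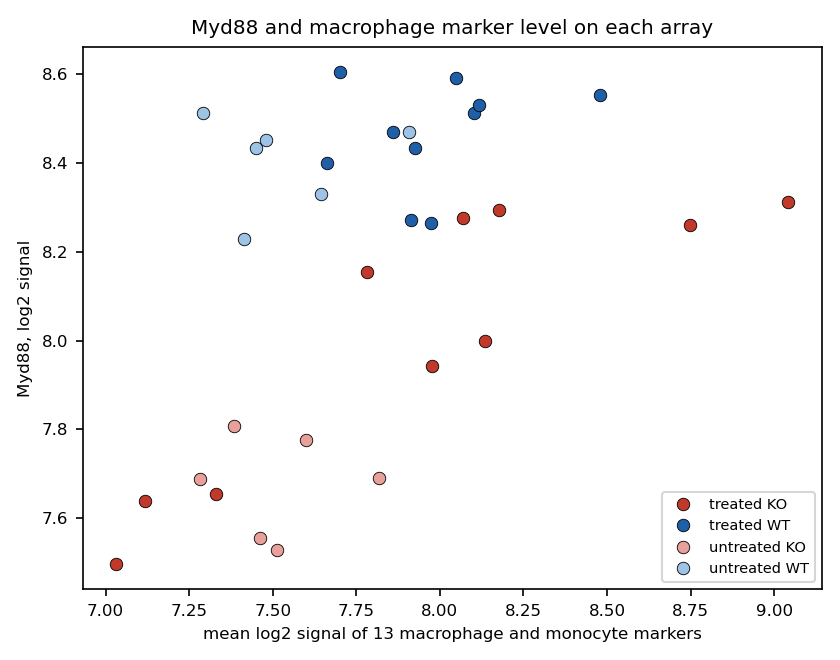
Myd88 log2 signal (vertical axis) against the mean log2 signal of 13 macrophage and monocyte markers (horizontal axis), 1 point for each of the 32 arrays, coloured by group. Treated KO arrays run from 7.50 to 8.31 in Myd88 and from 7.03 to 9.04 in the marker mean, while the untreated KO arrays, at 7.53 to 7.81, lie below all WT arrays.

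Genes whose level followed Myd88 most closely after each array's group mean was subtracted were Npl (r = 0.83), Wfdc17 (r = 0.83) and Cd300a (r = 0.83), over 32 arrays and 10632 genes searched. Without that subtraction the closest were Efhd2 (r = 0.82), Gbp6 (r = 0.78) and Zbtb41 (r = 0.77). The arrays share groups and tissue composition, so these values, and those of the other members below, only describe likeness. A group with a wide spread weighs more in the values taken within groups. For Myd88 this was treated KO, with an SD of 0.31 against 0.10 to 0.12 in the other groups. For Irak1 it was treated KO too, at 0.48 against 0.12 to 0.21.

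Ticam1, the adaptor of the Myd88-independent route, had the largest difference of the members that were higher in treated KO mice. It was read by 1 probe set (1454676_s_at), so no further probe set could be set beside it. Its log2 signal was 7.32, 7.19, 7.08, 7.49, 7.17, 7.87, 7.27, 6.53, 7.11 and 7.02 in treated KO replicates 1 to 10. Treated WT arrays ranged from 6.30 to 7.06 with a median of 6.68. Of the treated KO arrays 8 lay above every treated WT array, and replicate 8, at 6.53, lay among them.

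The means were 7.20 ± 0.34 in treated KO and 6.66 ± 0.26 in treated WT mice (SD, n = 10 each), which made Ticam1 1.46-fold higher in KO (0.54 ± 0.12, limma adjusted p = 0.00417). Without treatment the arrays ranged from 6.17 to 6.82 in KO and from 6.34 to 6.87 in WT mice, and the difference of -0.21 ± 0.16 did not pass (95% interval -0.54 to 0.11, adjusted p = 0.855).

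Treated KO mice were 0.68 ± 0.14 above untreated KO mice, a 1.60-fold rise (adjusted p = 0.00125), with 9 of 10 treated arrays above every untreated one. In WT mice treatment went with -0.08 ± 0.14 (95% interval -0.37 to 0.21, adjusted p = 0.883). The responses of the genotypes differed by 0.75 ± 0.20, with an unadjusted p of 0.000777 and an adjusted p of 0.137, so this difference did not pass over all genes. After subtraction of group means, Plxnb2 (r = 0.68) and Plekha7 (r = 0.68) were the genes most like Ticam1 over the 32 arrays.

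Tirap, which links Myd88 to Tlr2 and Tlr4, passed between treated genotypes on 1 of its 2 probe sets. Its brighter probe set ranged from 7.59 to 8.10 (median 7.82) in treated KO and from 7.25 to 7.94 (median 7.61) in treated WT mice, with 2 KO arrays above all WT arrays. The difference of 0.21 ± 0.10 did not pass (adjusted p = 0.151). The second probe set (1418685_at) averaged 7.35 ± 0.21 in treated KO and 6.98 ± 0.30 in treated WT mice (SD, n = 10 each), and its difference of 0.37 ± 0.11 passed over all probe sets (adjusted p = 0.0369). With both averaged, Tirap was at 0.29 (adjusted p = 0.0384). In untreated mice it was 7.63 ± 0.28 in KO and 7.58 ± 0.18 in WT (SD, n = 6 each), a difference of 0.05 ± 0.12. Smim15 (r = 0.63) and Ffar4 (r = 0.63) were most like it within groups.

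**Figure D2:**
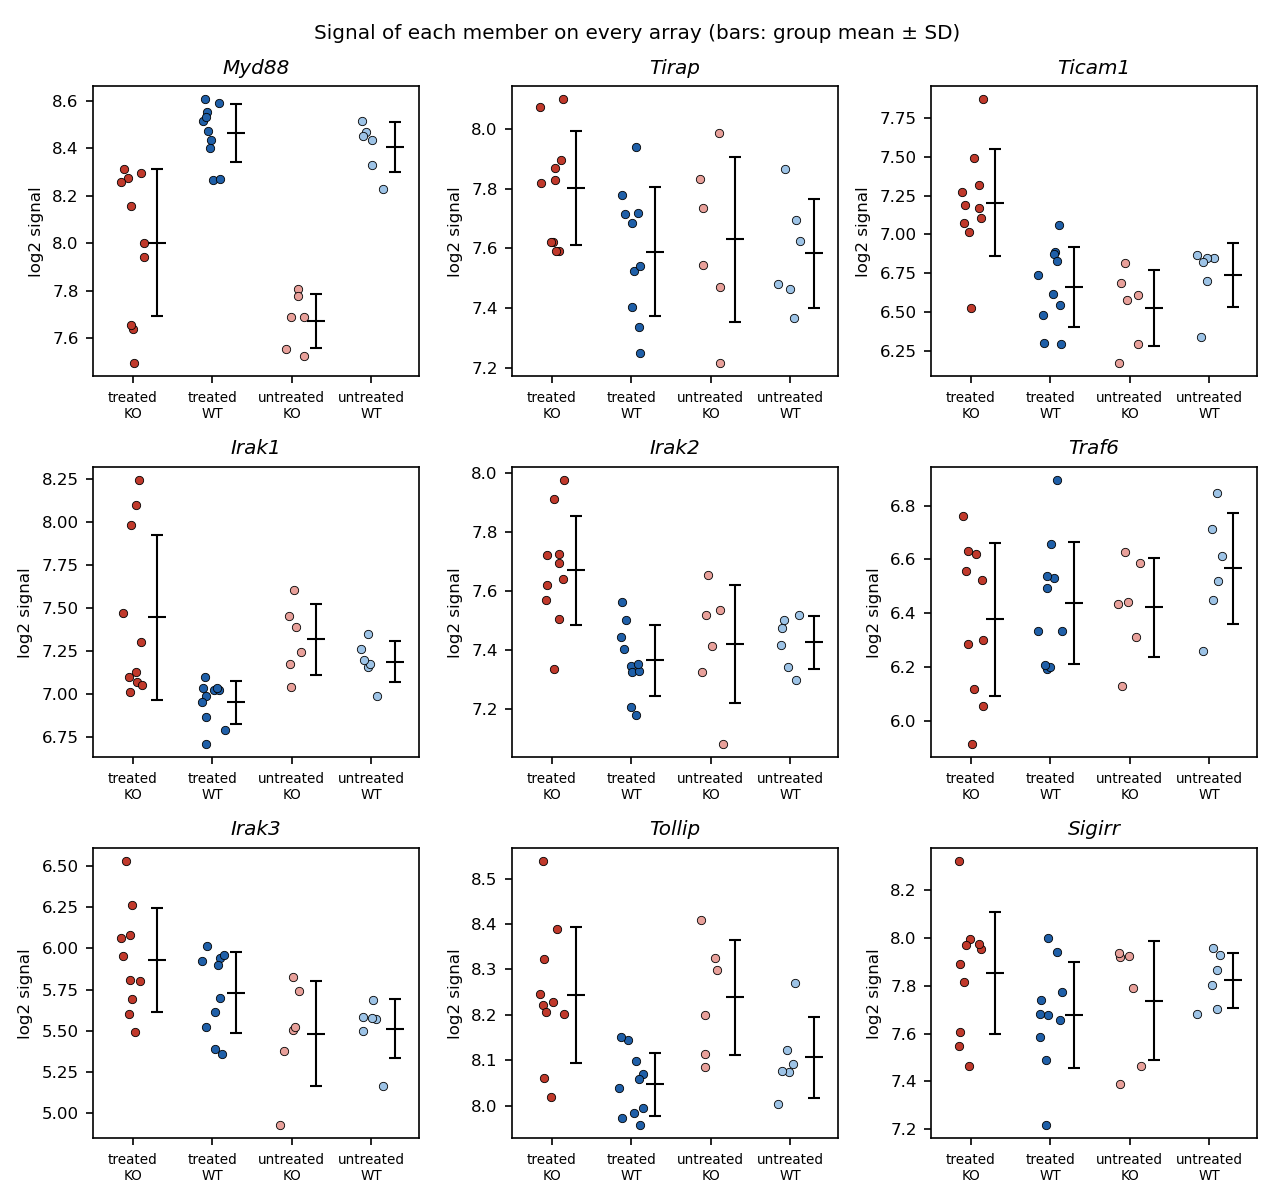
Log2 signal of each of the 9 measured members on all 32 arrays, 1 panel for each gene with its own vertical scale, 1 point for each mouse, and bars for the group mean ± SD. Myd88 separates the untreated genotypes at 7.81 and below in KO and 8.23 and above in WT, Ticam1 and Irak2 have 8 of 10 treated KO arrays above all treated WT arrays, and 3 treated KO arrays of Irak1 stand at 7.98 to 8.25.

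Irak1, a kinase that binds Myd88 through its death domain, was higher in treated KO mice, mainly on a few arrays. Its log2 signal was 7.47, 8.10, 7.01, 8.25, 7.07, 7.98, 7.05, 7.13, 7.31 and 7.10 in treated KO replicates 1 to 10. In treated WT mice it ranged from 6.71 to 7.10 with a median of 7.01. Replicates 2, 4 and 6 stood at 7.98 or above, 6 of 10 KO arrays lay above every WT array, and the lowest KO arrays overlapped the WT range.

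The means were 7.45 ± 0.48 in treated KO and 6.95 ± 0.12 in treated WT mice (SD, n = 10 each), a 1.41-fold difference (0.49 ± 0.13, limma adjusted p = 0.0128). This call was lost when only these groups were fitted (adjusted p = 0.0570), and with the squamous epithelium and skeletal muscle marker means as covariates (0.44, adjusted p = 0.0522). In untreated mice Irak1 was 7.32 ± 0.21 in KO and 7.19 ± 0.12 in WT (SD, n = 6 each), a difference of 0.13 ± 0.17 (95% interval -0.22 to 0.48). Treatment went with 0.13 ± 0.15 in KO and -0.24 ± 0.15 in WT mice, neither of which passed. Ctdnep1 (r = 0.87) and Rps27l (r = 0.84) were the genes most like Irak1 within groups.

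Irak1 had 4 probe sets. In treated mice all 4 were higher in KO, and 2 passed, the representative one and 1448668_a_at, which was at 0.38 ± 0.12 (adjusted p = 0.0423 over all probe sets). That probe set read 7.80, 8.05 and 7.79 in treated KO replicates 2, 4 and 6, again the 3 highest of the group. The same replicates also had the 3 highest means of 8 smooth muscle markers among treated KO arrays, at 11.91, 11.88 and 11.56, against 10.25 to 11.36 on the others. These means ran from 10.64 to 11.66 in treated WT mice, with 0 of 8 markers called between the treated genotypes and none at the floor on all arrays. The highest in treated WT mice, 11.66 in replicate 7 and 11.56 in replicate 5, went with Irak1 signals of 6.87 and 6.71 on the representative probe set. The latter was the lowest Irak1 signal of the treated WT arrays. The summed linear signal of the markers was 17436 to 44698 in treated KO and 24324 to 41171 in treated WT mice. The part of smooth muscle in the Irak1 values was not tested. The other probe sets, 1438120_x_at and 1438857_x_at, were at 0.36 ± 0.32 and 0.19 ± 0.09. In untreated mice the 4 differed in sign, from -0.85 ± 0.41 for 1438120_x_at to 0.13 for the representative probe set, and none passed. Probe sets ending in x_at can also bind transcripts of other genes.

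Irak2, the kinase that sustains signalling from the complex, had smaller but more even differences. Like Ticam1, it was read by 1 probe set (1436507_at). It ranged from 7.34 to 7.98 (median 7.67) in treated KO and from 7.18 to 7.56 (median 7.35) in treated WT mice. Of the KO arrays 8 lay above every WT array, and only replicates 8 and 9 lay within the WT range. The means were 7.67 ± 0.19 in treated KO and 7.37 ± 0.12 in treated WT mice (SD, n = 10 each), a 1.24-fold difference (0.31 ± 0.07, adjusted p = 0.00429).

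Without treatment Irak2 was 7.42 ± 0.20 in KO and 7.43 ± 0.09 in WT mice (SD, n = 6 each), and the 95% interval of the difference ran from -0.19 to 0.18. In KO mice it was 0.25 ± 0.08 higher after treatment (adjusted p = 0.0281), with 5 of 10 treated arrays above every untreated one. This call was lost when only those groups were fitted (adjusted p = 0.117), with the 3'/5' control ratio as a covariate (adjusted p = 0.0587), and without treated KO replicate 4 (adjusted p = 0.0535) or 5 (adjusted p = 0.0532) or untreated KO replicate 2 (adjusted p = 0.0686) or 3 (adjusted p = 0.108). The 3' minus 5' log2 difference, averaged over Actb and Gapdh, was -0.10 to 0.04 in treated KO and -0.07 to 0.04 in untreated KO mice. This average was the covariate, and the controls have opposite signs that cancel in it. Actb alone was 0.33 ± 0.06 in treated KO and 0.46 ± 0.09 in untreated KO mice (mean ± SD). Gapdh alone was -0.39 ± 0.04 and -0.48 ± 0.05.

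In WT mice treatment went with -0.06 ± 0.08 in Irak2, and the responses differed by 0.31 ± 0.11 (unadjusted p = 0.0105, adjusted p = 0.264). Nsf (r = 0.73) and Ppm1j (r = 0.72) were the genes most like Irak2 within groups.

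Traf6, the ubiquitin ligase that receives the signal from the Irak complex, did not pass in any comparison. Its brightest probe set ranged from 5.91 to 6.76 (median 6.41) in treated KO, from 6.19 to 6.89 (median 6.41) in treated WT, from 6.13 to 6.63 in untreated KO and from 6.26 to 6.85 in untreated WT mice, so all groups overlapped. The difference between treated genotypes was -0.06 ± 0.10, with a 95% interval from -0.28 to 0.15. None of its 5 probe sets passed, and the dimmest was at the floor on 19 of 32 arrays. Coasy (r = 0.70) and Eif4e (r = 0.70) were most like it within groups.

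Tollip, which binds Irak1 and holds it inactive, was the only inhibitor called between treated genotypes. It ranged from 8.02 to 8.54 (median 8.23) in treated KO and from 7.96 to 8.15 (median 8.05) in treated WT mice. Of the KO arrays 8 lay above every WT array, and the spread of both groups was small. The means were 8.24 ± 0.15 in KO and 8.05 ± 0.07 in WT (SD, n = 10 each), a 1.15-fold difference (0.20 ± 0.05, adjusted p = 0.0114).

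The second probe set of Tollip (1423048_a_at) passed as well, at 0.37 ± 0.10 (adjusted p = 0.0145 over all probe sets). In untreated mice Tollip was 8.24 ± 0.13 in KO and 8.11 ± 0.09 in WT (SD, n = 6 each), a difference of 0.13 ± 0.07 that did not pass (adjusted p = 0.714). Treatment went with 0.00 ± 0.06 in KO and -0.06 ± 0.06 in WT mice on the first probe set. On the second it went with 0.31 ± 0.11 in KO (adjusted p = 0.0581) and 0.09 ± 0.11 in WT mice, and with both averaged the KO difference was 0.16. Igfbp2 (r = 0.72) and Dbnl (r = 0.71) were most like it within groups.

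Irak3, an inhibitor found mainly in monocytes and macrophages, ranged from 5.49 to 6.53 (median 5.88) in treated KO and from 5.36 to 6.01 (median 5.80) in treated WT mice. With 4 of 10 KO arrays above every WT array, the difference of 0.20 ± 0.12 did not pass (adjusted p = 0.324). In untreated mice it ranged from 4.93 to 5.82 in KO and from 5.17 to 5.69 in WT. KO mice were 0.44 ± 0.14 higher after treatment (adjusted p = 0.0247), with 5 of 10 treated arrays above every untreated one.

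That Irak3 call was lost on the values as deposited (0.34, adjusted p = 0.123), with only those groups fitted (adjusted p = 0.0879), and without untreated KO replicate 5 (adjusted p = 0.1003) or 6 (adjusted p = 0.0522). Its second probe set was at 0.40 ± 0.18 in KO mice and did not pass (adjusted p = 0.141). In WT mice the treatment difference of Irak3 was 0.22 ± 0.14. Of the 36 pairs of members, Irak3 and Myd88 had the highest r within groups (0.54), next to Irak1 and Tollip (0.54), and Irak3 and Sigirr the lowest (-0.54). Abca5 (r = 0.72) and Ywhab (r = 0.64) were most like Irak3.

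Sigirr, a receptor-like inhibitor of IL-1 and Toll-like receptors that intestinal epithelium makes, did not pass in any comparison. It ranged from 7.46 to 8.32 (median 7.92) in treated KO, from 7.22 to 8.00 (median 7.68) in treated WT, from 7.39 to 7.94 in untreated KO and from 7.68 to 7.96 in untreated WT mice, and the groups overlapped. The difference between treated genotypes was 0.18 ± 0.10 (adjusted p = 0.262, 95% interval -0.02 to 0.38). Rassf7 (r = 0.75) and Marveld2 (r = 0.68) were most like it within groups.

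**Figure D3:**
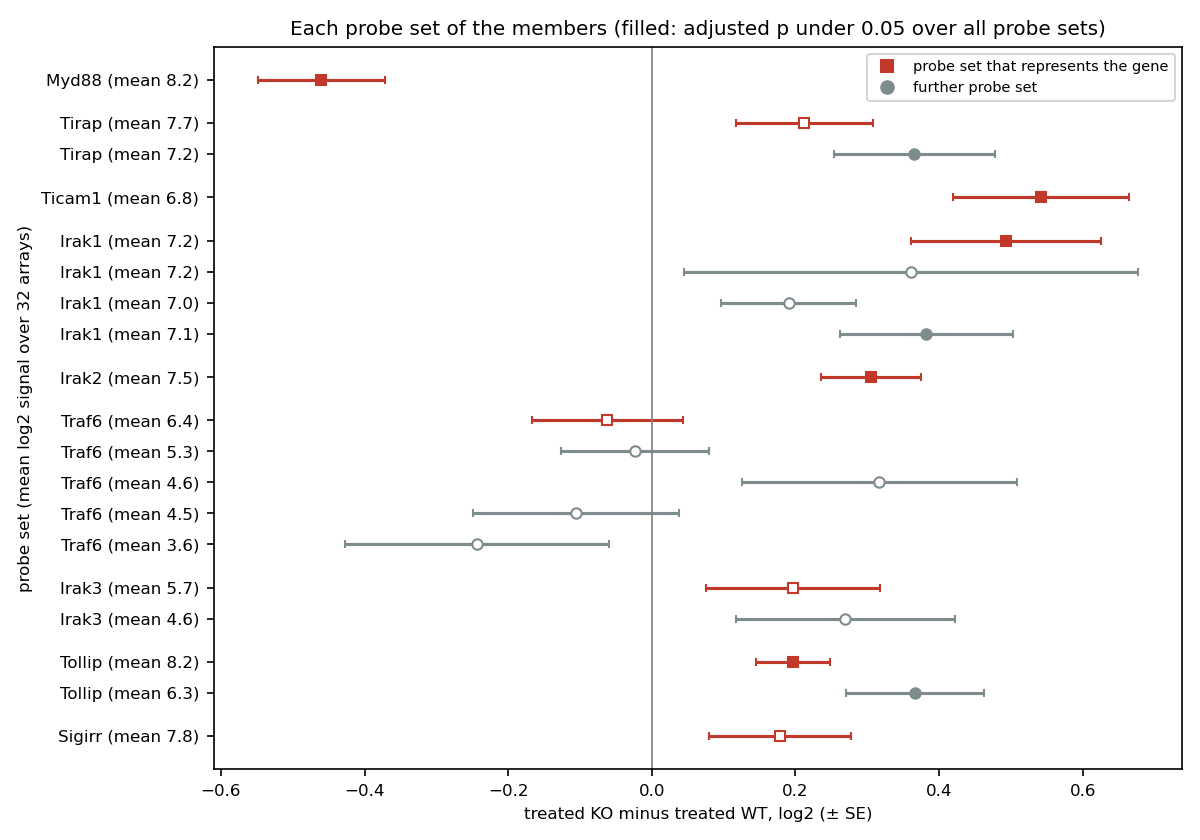
Treated KO minus treated WT log2 difference (horizontal axis, ± SE) for each of the 19 probe sets of the members, named by gene with the mean log2 signal over 32 arrays. Filled symbols passed over all probe sets. All 4 Irak1 and both Tollip probe sets lie above 0, while the 5 of Traf6 lie on both sides of it.

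Between untreated genotypes, 1 of 9 members was called by limma, against 0.115% of all genes (0.0385% higher and 0.077% lower in KO), and this was the targeted gene itself. For the other 8 members the differences ran from -0.21 to 0.13 and the adjusted p values from 0.714 to 1. The median of the 9 was -0.03.

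Between treated and untreated KO mice 4 of 9 members were called higher after treatment (Myd88, Ticam1, Irak2 and Irak3). Over all genes 8.7% were called higher and 18.8% in either direction. In sign, called or not, 8 of the 9 were higher. Ticam1 was the member with the largest change, and the calls of the other 3 were lost in the settings given above. The median of the 9 was 0.17.

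In WT mice 0 of 9 members were called by limma, against 1.83% of all genes (0.599% higher and 1.23% lower), and 0 had an unadjusted p under 0.05. When only the treated and untreated WT groups were fitted, Irak1 passed at -0.24 (adjusted p = 0.0437). The median of the 9 was -0.06.

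The treatment difference in KO minus that in WT mice was positive for 9 of 9 members, with a median of 0.26, against -0.000376 over all genes. The 11 colon epithelium markers were positive in 11 of 11 cases in this contrast, with a median of 0.11, and their part in the members' values was not tested. However, 0 of 9 passed as a difference between responses, against 0.055% of all genes (0.0495% higher and 0.0055% lower), and 2 (Ticam1 and Irak2) had an unadjusted p under 0.05. These contrasts share all their arrays with the comparisons above and add no independent measurement.

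**Figure D4:**
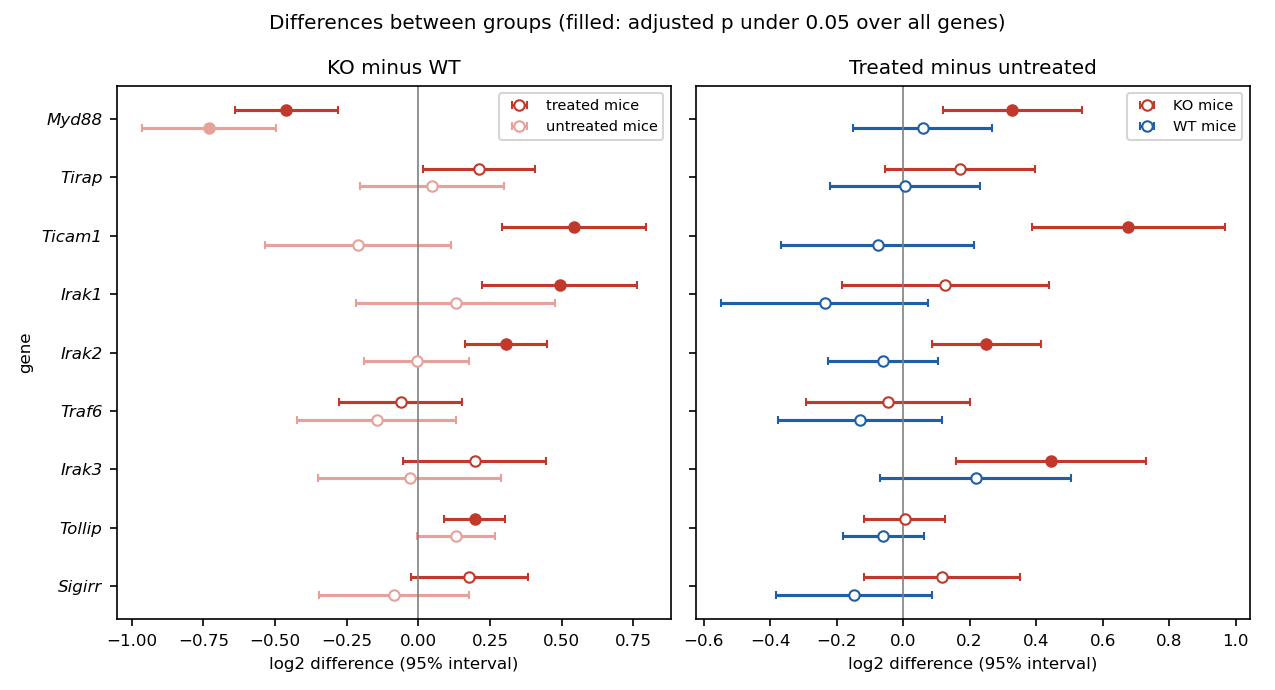
Log2 differences of the 9 members with 95% intervals, KO minus WT on the left (treated and untreated mice) and treated minus untreated on the right (KO and WT mice). Filled points passed at an adjusted p under 0.05. In treated mice Ticam1 (0.54), Irak1 (0.49), Irak2 (0.31) and Tollip (0.20) lie above 0 and Myd88 (-0.46) below, and in WT mice no treatment difference is filled.

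The rest of the pathway was described with 6 lists of 77 genes, of which 69 were measured. Between treated genotypes 4 were called higher and 3 lower in KO mice, against 12.8% of all genes called, and 14 had an unadjusted p under 0.05. In sign, called or not, 38 of the 69 were higher and 31 lower. Tlr4, the receptor for lipopolysaccharide and the only receptor of 19 called, averaged 7.52 ± 0.34 in treated KO and 7.07 ± 0.27 in treated WT mice (0.45 ± 0.12, adjusted p = 0.0158). Il1rn, the soluble antagonist of the IL-1 receptor, was higher by 0.67 ± 0.12, and Rela, an NF-kappaB subunit, by 0.18 ± 0.06.

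Ptgs2, which makes prostaglandins, was 7.72 ± 1.28 in treated KO and 6.60 ± 0.45 in treated WT mice, 2.18-fold higher. Nfkbia, which holds NF-kappaB in the cytoplasm, was lower in KO, at -0.53 ± 0.13 (adjusted p = 0.00631). Peli1, a ubiquitin ligase of the Irak complex, was lower at -0.34 ± 0.06, and Tab2, a partner of Tak1, at -0.29 ± 0.06. Without treatment 0 of 69 were called by limma, and 4 had an unadjusted p under 0.05.

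After treatment 20 of the 69 genes were called higher and 1 lower in KO mice, against 8.7% of all genes called higher and 10.1% called lower. In sign, called or not, 50 of the 69 were higher and 19 lower. With only the compared groups fitted 8 of the 69 were called, and with the 3'/5' covariate 13. Of 19 receptors 4 were called higher, among them Tlr13 (0.96 ± 0.19), Tlr6 (0.75 ± 0.22) and Tlr4 (0.60 ± 0.14). Of 9 kinase relay genes 3 were called higher, namely Ikbkb (0.37 ± 0.09), Tab3 (0.28 ± 0.09) and Map3k7 (0.27 ± 0.09). Of 7 transcription factors 2 were called higher, Rel (0.89 ± 0.25) and Irf7 (0.68 ± 0.22). Feedback inhibitors were called higher in 3 of 12 cases, Il18bp (1.23 ± 0.37), Il1rn (1.12 ± 0.14) and Socs1 (0.65 ± 0.23).

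Of 16 response genes 8 were called higher and 15 were higher in sign, with a list median of 0.64. The chemokine Cxcl5 was 2.53 ± 0.51 higher, the acute phase gene Saa3 1.78 ± 0.59 and the chemokine Cxcl2 1.33 ± 0.38. Peli1, at -0.35 ± 0.07, was the only gene called lower. The mean of 7 measured neutrophil markers of 9 was 3.96 to 5.78 in treated KO and 3.76 to 4.30 in untreated KO mice. Of these markers 1 (Csf3r) was called higher, against 8.7% of all genes, and the median difference was 0.47. Their summed linear signal was 129 to 846 in treated KO and 102 to 170 in untreated KO mice, none was at the floor on all arrays, and their part in these differences was not tested. In WT mice Cxcl5 alone was called, at 1.96 ± 0.51 (adjusted p = 0.0405), so 1 of 69 was called, against 1.83% of all genes. In WT mice 10 of 69 had an unadjusted p under 0.05, and the median of the response genes was 0.50. No pathway gene was called by limma as a difference between the responses, and 9 had an unadjusted p under 0.05.

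**Figure D5:**
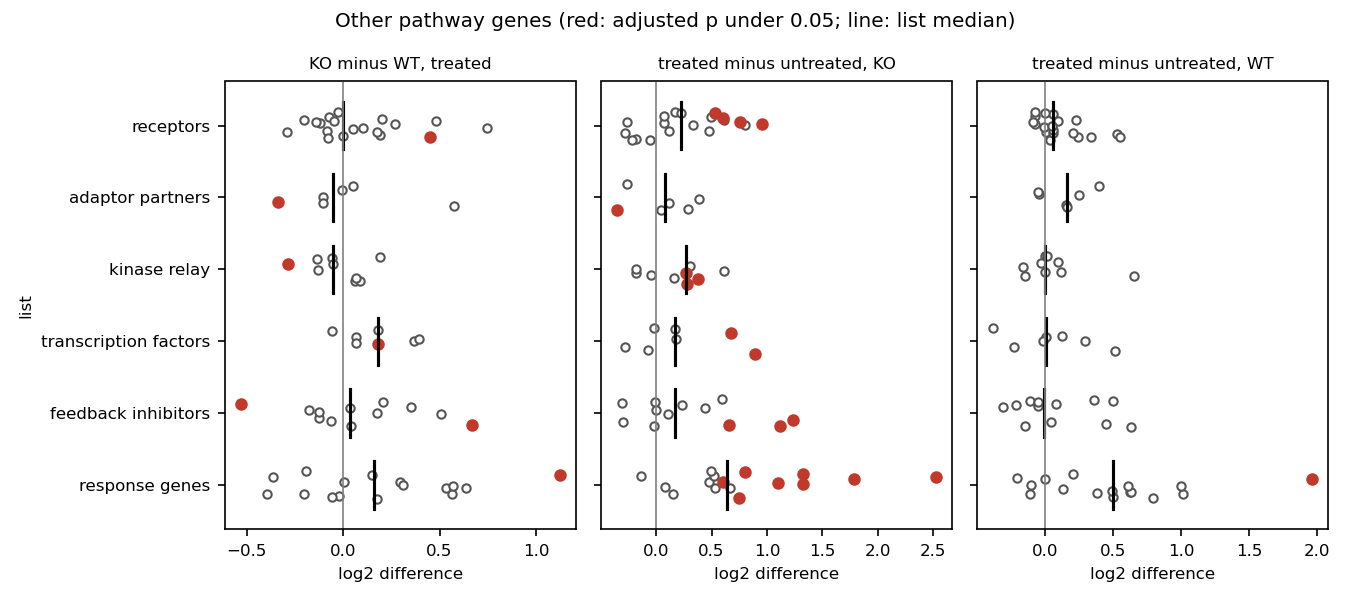
Log2 differences of 69 other pathway genes in 6 lists, 1 point for each gene, for treated KO minus treated WT, treated minus untreated KO and treated minus untreated WT mice. Red points passed at an adjusted p under 0.05 and lines mark list medians. In KO mice 20 genes lie red above 0, 8 of them response genes, whereas in WT mice Cxcl5 is the red point.

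Markers of other cells also moved with genotype and treatment. The mean of 11 colon epithelium markers was 11.85 to 12.22 in treated KO and 11.38 to 11.94 in treated WT mice. Of the 11, 5 were called higher in KO, among them Cdx2, Vil1, Krt20 and Cdh17, against 6.24% of all genes. Between treated and untreated KO mice 6 of the 11 were called higher, against 8.7% of all genes. Of 9 measured B and plasma cell markers 3 (Jchain, Mzb1 and Pou2af1) were called lower in treated KO than in treated WT mice, against 6.58% of all genes. Their list means were 6.22 to 7.69 in KO and 6.69 to 7.95 in WT. Between treated and untreated mice 4 of these 9 were called lower and 1 higher in KO (median -0.78), against 10.1% and 8.7% of all genes. In WT 3 were called lower (median -0.37), against 1.23% of all genes. Summed linear signals ran from 62523 to 77037 for epithelium and from 5417 to 7802 for B and plasma cells in treated KO mice, against 50001 to 69543 and 6391 to 8797 in treated WT mice. No marker of either list was at the floor on all arrays, and their part in the values of Ticam1, Irak1, Irak2 and Tollip was not tested.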

How the data were processed

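Total RNA of distal colon was labelled and hybridised per the labels' protocols. The deposited values are log2 probe set signals, and the software that summarised them is not given in the sources used here. The authors' linear signals had been scaled to a 2% trimmed mean of 150.9 to 151.3 with values under 10 (a log2 signal of 3.322) set to 10, where 18.7% to 23.9% of probe sets lay. Depth does not apply to arrays, and the number of mice limits the precision.

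Of 45101 probe sets, 34945 carried 1 gene symbol. Values were quantile normalised, 18193 genes were represented by their brightest probe set, and 4 group means were fitted over 32 arrays with limma 3.58.1 in R 4.3.3 (28 residual degrees of freedom). A gene was called at a two-sided p under 0.05 after Benjamini-Hochberg adjustment across the 18193 genes. Probe sets were tested in a fit of their own. The pipeline was tested on simulated data with planted changes larger than those of the members and the same spread in every group. That test does not show how well differences of the members' size are found.

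All members are named. For each pathway list, up to 3 called genes per comparison with the largest difference are named, and for each member the 2 most alike genes (for Myd88 the 3 within and the 3 across groups), among the brighter genes (mean signal past the 40th percentile). Members and lists were chosen with earlier results of these data known. Cell type markers were summarised by their list means. Repeat numbers were not treated as pairs in the main fit. Correlations of deviations between arrays of the same number lay between -0.17 and 0.24 in 10 treated pairs and between -0.08 and 0.16 in 6 untreated pairs. Such values cannot show whether the mice were matched by repeat number. The labels call the arrays biological repeats and give no batch. Alternatives covered scaling, probe set choice, dim genes, the fitted groups, a repeat block, array weights, the prior, covariates and single arrays left out. The Xist covariate was added after the data were seen.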

Additional observations from a re-analysis of the deposited data

Results flagged for a closer look

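Among 36 groups of values (9 members in 4 groups), 2 held a sample that stood apart from the rest by Dixon's criterion, which flags about 1 in 20 such groups by chance. Ticam1 was lowest in untreated WT replicate 2, at 6.34. Irak3 was lowest in untreated WT replicate 4, at 5.17. Leaving out either array changed no call of either gene.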

How the results depend on the processing

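The lower Myd88 signal in KO mice (-0.51 to -0.39 treated and -0.79 to -0.70 untreated), the higher Ticam1 (0.44 to 0.62), Irak2 (0.25 to 0.34) and Tollip (0.16 to 0.28) in treated KO against treated WT mice, and the Ticam1 rise in KO mice (0.60 to 0.76) were called at an adjusted p under 0.05 in all 13 alternatives other than single arrays left out and with each of the 32 arrays left out. Members called between treated genotypes numbered 3 at an adjusted p under 0.01 and pathway genes 4, instead of 5 and 7. Members called between treated and untreated KO mice numbered 1 at that threshold, 1 with only the compared groups and 2 with the repeat number as a block, instead of 4, and 2 to 4 with single arrays left out. With the block, Myd88 was at 0.30 (adjusted p = 0.0695) and Irak3 at 0.40 (adjusted p = 0.0912). Pathway genes called there numbered 6, 8 and, with the 3'/5' covariate, 13, instead of 21. For WT mice 1 member and 2 pathway genes were called with only the compared groups, and pathway genes numbered 0 at 0.01, with the block, with the 3'/5' covariate and with the squamous and skeletal muscle covariates, and 5 with array weights, instead of 1. With array weights 1 pathway gene was called as a difference between responses. Over all genes array weights called 1466 genes in WT mice against 333, and 258 against 10 as differences between responses. With Xist as a covariate, chosen after the data were seen because Irak1 lies on the X chromosome, Irak1 was at 0.49 between treated genotypes (adjusted p = 0.0139).

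Values that turned sign had not been called. Between genotypes these were Traf6 treated (0.0021 without treated WT replicates 1 and 2), Irak1 untreated (-0.23 with probe sets averaged) and Irak2 untreated (0.0173 with the squamous and skeletal muscle covariates). Tollip in KO mice was -0.0184 with array weights and -0.0200 with the 3'/5' covariate. In WT mice the treatment difference of Tirap was -0.0550 with probe sets averaged, -0.00166 with array weights, -0.0037 with the 3'/5' covariate and -0.0015 without treated WT replicates 1 and 2, and that of Tollip was 0.0149 with probe sets averaged. There Ticam1 was 0.0117 with the block and 0.0793 with the squamous and skeletal muscle covariates, Irak2 0.0370 with those muscle and squamous covariates, and Myd88 -0.0028 with the 3'/5' covariate. With single arrays left out, untreated KO minus WT differences ranged from -0.0238 to 0.13 for Tirap, from -0.0516 to 0.0629 for Irak2 and from -0.10 to 0.0805 for Irak3. Treatment differences then ranged from -0.0279 to 0.0388 for Tollip and from -0.10 to 0.0065 for Traf6 in KO mice and from -0.0368 to 0.0630 for Tirap in WT mice. The causes of these changes were not tested. Dim probe sets near the floor and the unequal spread of treated KO arrays limit what small differences can show.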
